A study of Homo sapiens with 12 samples.

Results

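The levels of 10 genes of transforming growth factor beta (TGF-β) and bone morphogenetic protein (BMP) signalling were followed through knockdown of 2 RNA-binding proteins in 2 human tumour cell lines. The 10 genes, taken by their symbols, were TGFB1, TGFB2, INHBA and BMP4 among the ligands, the receptor TGFBR2, the inhibitor SMAD7, and TGFBI, ID1, ID2 and ID3, which are known targets of the pathway. They are 10 of 26415 gene symbols used on chromosomes 1 to 22 and X. Each is represented by the transcript model that held the most sequenced fragments over all libraries, and all 10 passed the filter on low counts.

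Ligands of this family bind pairs of type I and type II receptor kinases at the cell surface, and the type I receptor then phosphorylates SMAD proteins that enter the nucleus with SMAD4 and bind DNA. TGF-β and activin ligands act mainly through SMAD2 and SMAD3, whereas BMP ligands act mainly through SMAD1, SMAD5 and SMAD9. The pathway is known to restrain growth of normal epithelium, to induce matrix genes and, in bone, to govern osteoblast differentiation.

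PC3 is an established prostate adenocarcinoma line and MG63 an established osteosarcoma line. Both are labelled wild type, so neither carries an engineered change. Cells received siRNA at 10 nM by lipofection, either a non-targeting control (siControl), siRNA against LARP4A (siLARP4A, whose target is listed under the gene symbol LARP4) or siRNA against LARP4B (siLARP4B), and polyadenylated RNA was extracted 72 h later. There were thus 6 groups with 2 libraries in each. The submitters state 2 biological replicates for a condition and analyses done in duplicate, and whether the 2 libraries of a group are the biological replicates or duplicates of one is not given, so each n of 2, SD, SE and p may measure technical spread only. The sequences and number of the siRNAs per target are not given in the sources used here, so effects of a target's loss and other effects of its siRNA cannot be told apart.

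The 12 libraries held 16950119 to 24864977 fragments, the most in replicate 1 of PC3 siLARP4A. The 2 libraries of each group were farther apart than counting error alone gives, with a chi-square per degree of freedom of 1.63 to 6.28, highest in PC3 siLARP4A and next, at 5.03, in MG63 siLARP4B. LARP4 stood at 19.0 and 19.4 FPKM (fragments scaled to library size and transcript length) with PC3 siControl and at 2.36 and 2.47 with siLARP4A, and in MG63 at 8.18 and 8.50 against 2.11 and 2.19. LARP4B stood at 7.02 and 7.18 FPKM with PC3 siControl and at 1.35 and 1.26 with siLARP4B, and in MG63 at 6.64 and 6.77 against 1.89 and 2.20. LARP4 itself was higher with siLARP4B in MG63, at 10.6 and 11.5 FPKM, by 0.44 in log2 units (SE 0.059, edgeR adjusted p 5.2e-06), whereas in PC3 it did not pass (-0.07, adjusted p 0.34), and LARP4B did not pass with siLARP4A in either line. All 5 epithelial markers (KRT8, KRT18, KRT19, EPCAM and CDH1) had a median of at least 3.72 FPKM in PC3, where KLK3 and KLK2, which mark prostate luminal cells, stayed at or under 0.0310. MG63 held mesenchymal COL1A1, COL1A2, COL3A1, SPARC and VIM at medians of 466 FPKM or more, while the osteoblast markers RUNX2 and ALPL reached at most 0.654 and 1.08. Some markers were present in both lines. VIM had a median of 464 FPKM in PC3, where the 3 collagen genes and SPARC had medians of at most 4.75. KRT8 and KRT18 had medians of 28.7 and 36.1 in MG63, where KRT19, EPCAM and CDH1 had medians of at most 2. T-cell CD3E was at 0 in every library and the summed immune and endothelial markers lay between 0.391 and 3.14 FPKM. Of that list CD14 had a median of 2.1 FPKM in MG63 and 0.239 in PC3.

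The promoters of ID1, ID2 and ID3 are shown because these paralogous genes, which encode inhibitors of basic helix-loop-helix transcription factors, responded differently below. Each runs from 250 bases before to 50 after the RefSeq start on GRCh38.p14, written 5′ to 3′ on the gene's own strand, with matches to any of 4 motifs in capitals. ID1 is taken from chr20:31605039-31605338 on the plus strand, ID2 from chr2:8681806-8682105 on the plus strand and ID3 from chr1:23559452-23559751 on the minus strand.
ID1: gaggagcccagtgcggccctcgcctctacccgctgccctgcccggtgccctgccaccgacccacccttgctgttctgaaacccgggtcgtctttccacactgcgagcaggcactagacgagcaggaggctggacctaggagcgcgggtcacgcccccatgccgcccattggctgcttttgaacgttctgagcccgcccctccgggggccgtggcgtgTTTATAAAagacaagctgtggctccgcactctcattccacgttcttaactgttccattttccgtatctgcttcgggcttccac
ID2: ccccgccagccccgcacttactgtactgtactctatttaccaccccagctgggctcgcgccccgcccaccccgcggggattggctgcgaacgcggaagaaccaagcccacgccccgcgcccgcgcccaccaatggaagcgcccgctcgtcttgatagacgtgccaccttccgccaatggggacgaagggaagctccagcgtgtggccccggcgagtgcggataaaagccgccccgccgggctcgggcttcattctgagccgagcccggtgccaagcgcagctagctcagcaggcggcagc
ID3: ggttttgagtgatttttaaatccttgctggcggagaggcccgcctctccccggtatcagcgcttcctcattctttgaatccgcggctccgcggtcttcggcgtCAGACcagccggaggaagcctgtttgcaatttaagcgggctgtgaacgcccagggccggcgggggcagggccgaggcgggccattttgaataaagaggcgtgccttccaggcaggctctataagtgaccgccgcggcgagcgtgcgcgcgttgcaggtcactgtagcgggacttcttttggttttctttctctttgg

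The motifs searched on both strands were GGCGCC, a GC-rich SMAD motif, CAGAC, a short SMAD-binding element, GTCTAGAC, the palindromic SMAD-binding element, and TATAAA, the core of the TATA box. Of 35116 RefSeq promoters of this length, 19.2% held GGCGCC, 45.3% CAGAC, 0.202% GTCTAGAC and 11.5% TATAAA. In ID1 the capitals are TATAAA, found on the plus strand 31 bases before the start and on the minus strand in the same 8 letters. The ID2 window held none of the 4 motifs, and ID3 held 1 CAGAC 147 bases before its start. All 10 genes matched this promoter table. CAGAC was also present before or just after a start of TGFB2, INHBA, BMP4 and SMAD7, GGCGCC at BMP4 and TGFBI, and TATAAA at TGFB2, INHBA and SMAD7, while the windows of TGFB1 and TGFBR2 held no match. A match is a run of letters only and shows no binding.

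In the control cells the 10 genes already separated the lines, and the plot of levels by siRNA gives all 12 libraries. Between PC3 siControl and MG63 siControl, 8 of the 10 genes differed at an edgeR adjusted p under 0.05, in a comparison in which 81.8% of the 15669 genes tested did so. TGFBI, which encodes an extracellular matrix adhesion protein named for its induction by TGF-β, had the widest gap, with 317 and 284 FPKM in MG63 against 0.0616 and 0.0968 in PC3. INHBA, which encodes the subunit of activin A, went the other way, with 4.22 and 3.99 FPKM in PC3 and 0.0640 and 0.130 in MG63. The PC3 value of TGFBI rests on 3 and 5 fragments and the MG63 value of INHBA on 7 and 15, so both genes were close to undetected in 1 line.

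Among the others, ID3 was at 79.4 and 70.0 FPKM in MG63 siControl and at 12.2 and 10.1 in PC3 siControl, a log2 difference (PC3 minus MG63) of -2.91 (SE 0.092, edgeR adjusted p 3e-18). SMAD7 was also higher in MG63, by 4.22-fold, whereas TGFB2, BMP4 and ID2 were higher in PC3 by 3.68-, 3.58- and 1.88-fold. TGFB1, at 60.2 ± 0.460 FPKM in PC3 and 55.1 ± 2.93 in MG63 (SD, n = 2), did not pass the test (edgeR adjusted p 0.61). ID1, at 58.8 ± 0.813 and 48.9 ± 3.22 FPKM (SD, n = 2), did not pass it either (adjusted p 0.13), although with limma on log2(FPKM + 1) it did, at an adjusted p of 0.0017. TGFBR2 passed with a log2 difference of -0.17 (adjusted p 0.0059) although its FPKM ranges overlapped, and this call was lost with limma on log2(FPKM + 1), at -0.01 (adjusted p 0.86). That setting moved the median of all genes by 0.11, against 0.02 in the counts.

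In order of level, PC3 siControl held TGFB1 and ID1 (60.2 and 58.8 FPKM), then ID2 (33.7), TGFBR2 (18.7), ID3 (11.2), INHBA (4.10), TGFB2 (3.61), BMP4 (3.26), SMAD7 (2.01) and TGFBI (0.0792). The nearest libraries of TGFB1 and ID1 were less than 1 FPKM apart, and those of TGFB2 and BMP4 overlapped. In MG63 siControl the order was TGFBI (301 FPKM), ID3 (74.7), TGFB1 (55.1), ID1 (48.9), TGFBR2 (18.8), ID2 (16.0), SMAD7 (7.57), TGFB2 (0.878), BMP4 (0.815) and INHBA (0.0970). There the 4 library values of TGFB2 and BMP4 lay within 0.1 FPKM of each other.

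**Figure D1:**
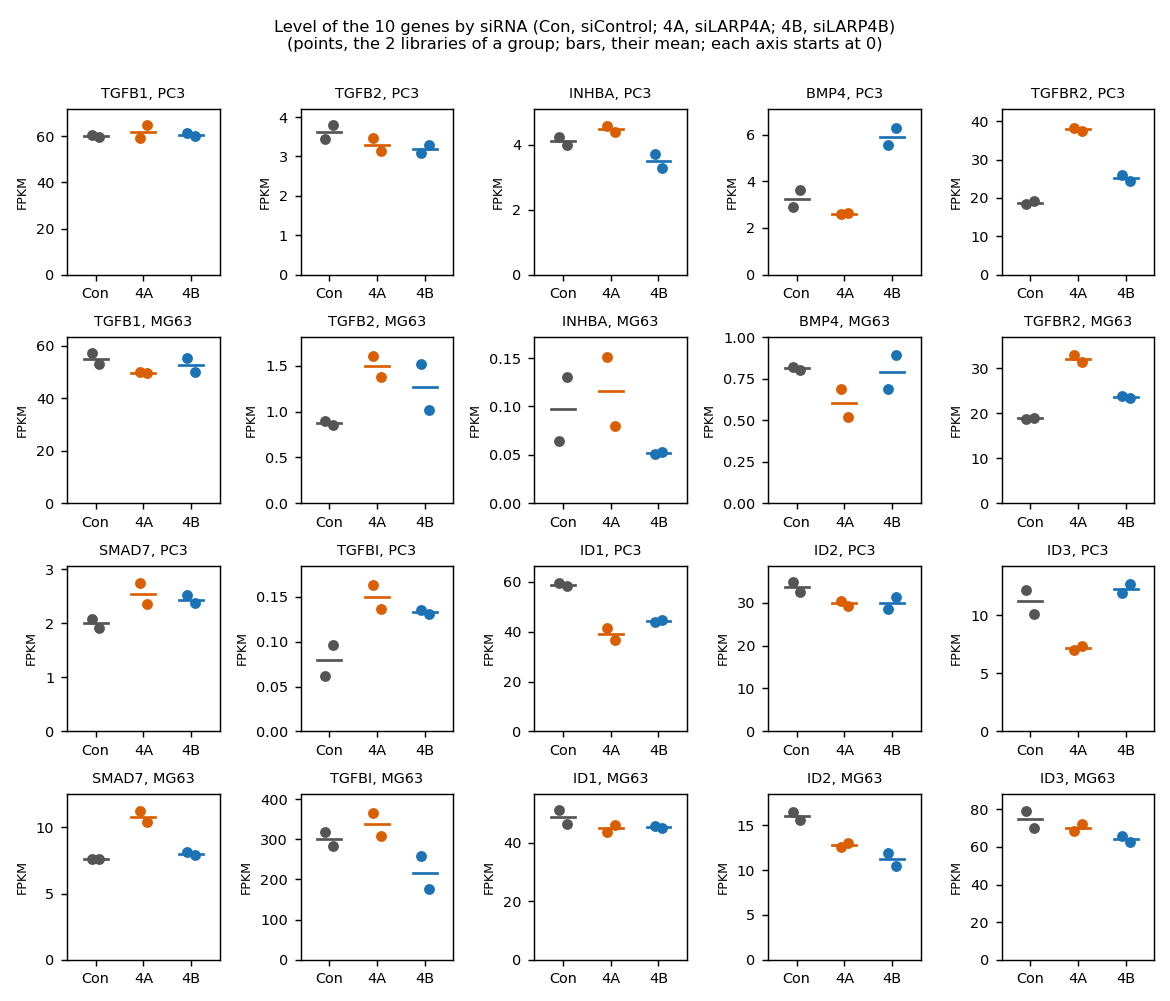
Level in FPKM (y axes, each from 0) of the 10 genes in the 3 siRNA groups of PC3 and MG63 (x axes), with each library as a point and the mean of 2 libraries as a bar. TGFBR2 is lowest with siControl and highest with siLARP4A in both lines, ID1 is lower under both siRNAs in PC3, and TGFBI in PC3 and INHBA in MG63 lie under 0.2 FPKM.

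The comparison of each siRNA with siControl within its line asks how the RNA levels of these genes differ under that siRNA. In PC3, siLARP4A changed 4 of the 10 genes, against 36% of all genes tested, 2 of them higher (17% of all genes were called higher) and 2 lower (19%). PC3 siLARP4B changed 5 of 10, against 44.7% of all genes, with 2 higher (21.3%) and 3 lower (23.4%). MG63 siLARP4A changed 4 of 10, against 26.4%, with 3 higher (14.5%) and 1 lower (11.9%), and MG63 siLARP4B 5 of 10, against 35.1%, with 2 higher (18.8%) and 3 lower (16.3%). Each count is within 2 genes of what the share of all genes gives for 10, and the median log2 fold change of the 10 genes lay between -0.05 and 0.06. TGFBR2 was the one gene of the 10 that passed in all 4 comparisons.

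Of the ligands, TGFB1 (chromosome 19, 41330323 to 41353922, minus strand, with all coordinates on hg38) passed in none of the 4 comparisons. Its levels under the 3 siRNAs ran from 59.1 to 65.1 FPKM in PC3 and from 49.6 to 57.2 in MG63, and its log2 fold changes from -0.13 to 0.03 with adjusted p of 0.12 to 0.73 (edgeR). The counts behind it were 2428 to 4084 fragments a library. In MG63 both siLARP4A libraries, at 50 and 49.6 FPKM, were below both siControl libraries, at 57.2 and 53.0, and this difference passed when only those 4 libraries were fitted (-0.14, adjusted p 0.0047).

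TGFB2 (chromosome 1, 218345284 to 218444619, plus strand) encodes another TGF-β isoform and behaved differently in the 2 lines. In MG63 it stood at 0.902 and 0.855 FPKM with siControl, at 1.61 and 1.38 with siLARP4A and at 1.52 and 1.02 with siLARP4B. All 4 knockdown libraries were above both controls, and the spread was widest within siLARP4B. It rose by 0.78 in log2 units with siLARP4A (SE 0.16, edgeR adjusted p 0.00096) and by 0.56 with siLARP4B (SE 0.17, adjusted p 0.011). Without replicate 1 of MG63 siLARP4B the second value became 0.23 (adjusted p 0.38), and it also missed the threshold without replicate 2 of MG63 siControl (0.51, adjusted p 0.091) and with limma on log2(FPKM + 1) (0.26, adjusted p 0.075). With that limma setting the siLARP4A value was 0.41 and still passed. These libraries held 98 to 179 fragments of TGFB2.

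In PC3, TGFB2 stood at 3.44 and 3.79 FPKM with siControl, at 3.46 and 3.15 with siLARP4A and at 3.09 and 3.28 with siLARP4B. Its log2 fold changes there were -0.14 (edgeR adjusted p 0.38) and -0.23 (adjusted p 0.12), and neither passed. Counted fragments may include those of the overlapping TGFB2-OT1, MIR548F3 and, since the strand setting is not given, TGFB2-AS1.

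INHBA (chromosome 7, 41685114 to 41703090, minus strand) was well detected in PC3, at 4.22 and 3.99 FPKM with siControl, 4.57 and 4.39 with siLARP4A and 3.72 and 3.27 with siLARP4B. The 3 groups did not overlap, with siLARP4A at the top and siLARP4B at the bottom. It fell with siLARP4B by 0.27 in log2 units (SE 0.10, edgeR adjusted p 0.035), while the siLARP4A value of 0.12 did not pass (adjusted p 0.38). The fall missed the threshold in 9 of 13 refits, among them DESeq2 (-0.25, adjusted p 0.18) and the refit without replicate 2 of PC3 siLARP4B (-0.15, adjusted p 0.39). In MG63 the gene had 6 to 16 fragments a library and no fold change is given. INHBA-AS1 lies on the opposite strand of the locus.

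BMP4 (chromosome 14, 53949736 to 53955050, minus strand), a ligand of the BMP branch, stood in PC3 at 2.89 and 3.64 FPKM with siControl, at 2.59 and 2.64 with siLARP4A and at 5.54 and 6.27 with siLARP4B. Both siLARP4B libraries were well above the other 4. It rose with siLARP4B by 0.81 in log2 units, 1.75-fold (SE 0.14, edgeR adjusted p 6.9e-05), and the call held in all 13 refits with values of 0.70 to 1.01. With siLARP4A the value was -0.33 (adjusted p 0.10). In MG63, BMP4 stood at 0.824 and 0.806 FPKM with siControl, 0.688 and 0.518 with siLARP4A and 0.687 and 0.892 with siLARP4B, on 20 to 35 fragments. Neither siRNA passed there, with log2 fold changes of -0.42 (adjusted p 0.30) and -0.02 (adjusted p 0.98).

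TGFBR2 (chromosome 3, 30606502 to 30694141, plus strand) encodes the type II receptor that binds TGF-β and activates the type I receptor TGFBR1. In PC3 it stood at 18.4 and 19.1 FPKM with siControl, 38.3 and 37.5 with siLARP4A and 26.1 and 24.5 with siLARP4B. In MG63 the same groups stood at 18.7 and 19.0, 32.8 and 31.3, and 23.8 and 23.3 FPKM. In each line the 3 groups were in the same order with no overlap, and the SD of the 2 libraries was 0.190 to 1.16 FPKM.

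TGFBR2 rose with siLARP4A by 1.01 in log2 units in PC3, 2.01-fold (SE 0.051, edgeR adjusted p 1.7e-12), and in MG63 by 0.79, 1.72-fold (SE 0.052, adjusted p 2.4e-10). With siLARP4B it rose by 0.39 in PC3 (SE 0.052, adjusted p 2.1e-06) and in MG63 by 0.35 (SE 0.052, adjusted p 2.1e-05). All 4 calls held in every one of the 13 refits, the PC3 siLARP4A value between 0.98 and 1.05. Each library held 1552 to 4477 fragments of the gene. TGFBR1, its partner, passed in 1 of the 4 comparisons, with 0.35 in MG63 siLARP4B (adjusted p 0.0011), and is named after its values were seen.

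SMAD7 (chromosome 18, 48919853 to 48950711, minus strand) encodes an inhibitory SMAD that blocks the type I receptor and is itself induced by TGF-β. In MG63 it stood at 7.57 FPKM in both siControl libraries, at 11.2 and 10.4 with siLARP4A and at 8.12 and 7.87 with siLARP4B. The siLARP4A libraries were clear of the rest. It rose there with siLARP4A by 0.53 in log2 units, 1.44-fold (SE 0.084, edgeR adjusted p 4.7e-05), in all 13 refits, while the siLARP4B value of 0.11 did not pass (adjusted p 0.37).

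In PC3, SMAD7 stood at 2.09 and 1.92 FPKM with siControl, at 2.75 and 2.36 with siLARP4A and at 2.52 and 2.37 with siLARP4B, so that all 4 knockdown libraries were above both controls. It rose by 0.35 with siLARP4A (SE 0.12, edgeR adjusted p 0.033), a call that was lost in 6 of 13 refits, with DESeq2 (adjusted p 0.074), without replicate 2 of PC3 siControl (0.30, adjusted p 0.16) and without replicate 1 of PC3 siLARP4A (0.25, adjusted p 0.25) among them. The siLARP4B value of 0.25 did not pass (adjusted p 0.13). Both limma settings passed it, at adjusted p of 0.047 and 0.034.

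TGFBI (chromosome 5, 136028988 to 136063818, plus strand) was the most abundant of the 10 genes in every MG63 library, at 317 and 284 FPKM with siControl, 366 and 309 with siLARP4A and 259 and 175 with siLARP4B. Both siLARP4B libraries were below the other 4, and they were also the farthest apart. TGFBI fell with siLARP4B by 0.44 in log2 units (SE 0.11, edgeR adjusted p 0.0025). The size of this fall depended on the library, being -0.76 without replicate 1 of MG63 siLARP4B (adjusted p 4.9e-08) and -0.19 without replicate 2 (adjusted p 0.045), and with DESeq2 the call was lost (-0.45, adjusted p 0.16). The siLARP4A libraries overlapped the controls, at a log2 fold change of 0.19 (adjusted p 0.22), which passed when only the 4 libraries compared were fitted (0.17, adjusted p 0.0018) and without the low-count filter (0.19, adjusted p 0.0005). In PC3 the gene had 3 to 11 fragments a library and no fold change is given.

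ID1 (chromosome 20, 31605289 to 31606510, plus strand) is a direct target of BMP-activated SMADs in many cell types, and its promoter is printed above. In PC3 it stood at 59.4 and 58.3 FPKM with siControl, at 41.4 and 36.8 with siLARP4A and at 43.9 and 44.9 with siLARP4B. All 4 knockdown libraries were well clear of both controls. ID1 fell by 0.60 in log2 units with siLARP4A, 1.51-fold (SE 0.066, edgeR adjusted p 2.8e-07), and by 0.45 with siLARP4B, 1.36-fold (SE 0.066, adjusted p 8.3e-06), and both calls held in all 13 refits. In MG63 it stood at 51.2 and 46.6 FPKM with siControl, 43.8 and 46.0 with siLARP4A and 45.8 and 45.2 with siLARP4B. The knockdown libraries were again all below both controls there, but by less, and the values of -0.10 (adjusted p 0.29) and -0.08 (adjusted p 0.42) did not pass.

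ID2 (chromosome 2, 8682056 to 8684461, plus strand) stood in MG63 at 16.5 and 15.6 FPKM with siControl, 12.6 and 13.0 with siLARP4A and 11.9 and 10.4 with siLARP4B, with no overlap between the 3 groups. It fell by 0.49 in log2 units with siLARP4B (SE 0.094, edgeR adjusted p 0.00029), in all 13 refits, and by 0.30 with siLARP4A (SE 0.093, adjusted p 0.018). The latter call was lost without replicate 1 of MG63 siControl (adjusted p 0.12) and without either replicate of MG63 siLARP4A (adjusted p 0.10 and 0.056). In PC3 the levels were 34.8 and 32.5 FPKM with siControl, 30.3 and 29.3 with siLARP4A and 28.4 and 31.3 with siLARP4B. All 4 knockdown libraries were below both controls, yet by little. ID2 fell there with siLARP4B by 0.22 (SE 0.076, adjusted p 0.025), to -0.12 without replicate 1 of PC3 siControl (adjusted p 0.34) and -0.11 without replicate 1 of PC3 siLARP4B (adjusted p 0.40), while the siLARP4A value of -0.19 did not pass (adjusted p 0.058).

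ID3 (chromosome 1, 23557926 to 23559501, minus strand) stood in PC3 at 12.2 and 10.1 FPKM with siControl, at 6.99 and 7.33 with siLARP4A and at 11.9 and 12.7 with siLARP4B. The siLARP4A libraries were the lowest, and siLARP4B overlapped the control. ID3 fell with siLARP4A by 0.65 in log2 units, 1.57-fold (SE 0.13, edgeR adjusted p 0.00027), in all 13 refits, while the siLARP4B value was 0.10 (adjusted p 0.52). In MG63 it stood at 79.4 and 70.0 FPKM with siControl, 68.4 and 72.2 with siLARP4A and 65.7 and 62.8 with siLARP4B. There it fell by 0.19 with siLARP4B (SE 0.073, adjusted p 0.048), a call lost in 8 of 13 refits, with -0.10 (adjusted p 0.45) without replicate 1 of MG63 siControl and -0.29 (adjusted p 0.018) without replicate 2 of it. The siLARP4A value was -0.07 (adjusted p 0.55).

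**Figure D2:**
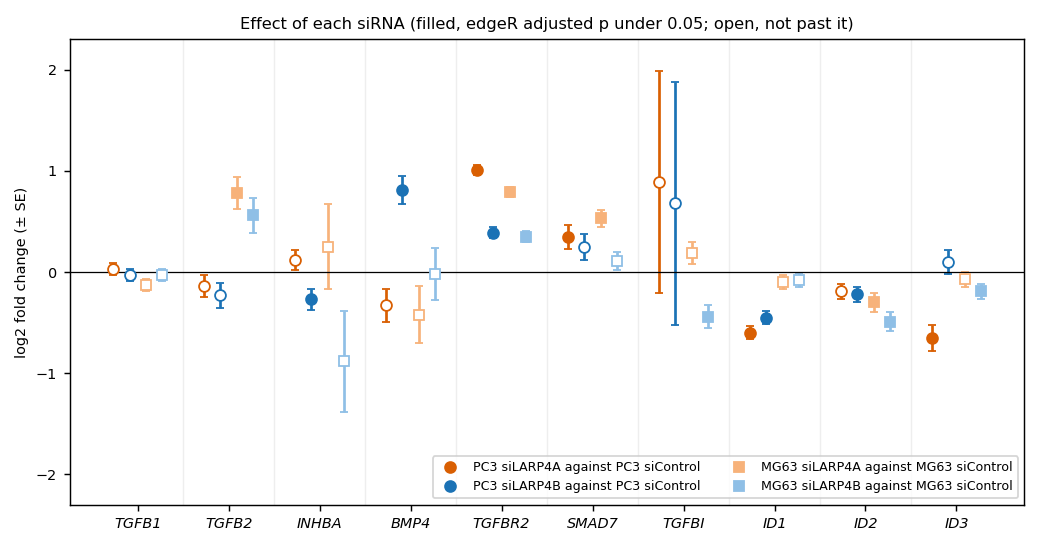
Log2 fold change against siControl of the same line (y axis, ± SE from edgeR) for the 10 genes (x axis) under each siRNA, with circles for PC3, squares for MG63 and filled symbols for an adjusted p under 0.05. TGFBR2 is filled and above 0 in all 4 comparisons, from 0.35 to 1.01, and ID1 is filled and below 0 in PC3 only.

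Both siRNA comparisons of a line share its control libraries, so the siRNAs were also compared with each other. Of the 10 genes, 4 differed between siLARP4A and siLARP4B in PC3, against 54.2% of all genes tested, and 3 in MG63, against 43.6%. TGFBR2 was higher with siLARP4A than with siLARP4B in both lines, by 0.61 in log2 units in PC3 (SE 0.050, edgeR adjusted p 8.4e-10) and in MG63 by 0.44 (SE 0.051, adjusted p 3.4e-07). In PC3 the log2 difference (siLARP4A minus siLARP4B) of BMP4 was -1.14, 2.21-fold lower with siLARP4A (SE 0.14, adjusted p 5.6e-07), and that of ID3 was -0.75 (SE 0.12, adjusted p 2.1e-05), while INHBA was higher by 0.39 (SE 0.099, adjusted p 0.0022). The INHBA call was lost without replicate 2 of PC3 siLARP4B (0.30, adjusted p 0.060) and with limma on log2(FPKM + 0.1) (0.35, adjusted p 0.17). In MG63, TGFBI was higher with siLARP4A by 0.63 (SE 0.11, adjusted p 4.9e-05), or by 0.37 without replicate 2 of MG63 siLARP4B, and SMAD7 by 0.42 (SE 0.083, adjusted p 0.00022). The difference of ID1 in PC3 was -0.15 and did not pass (adjusted p 0.072), but did without replicate 1 of PC3 siLARP4A (-0.25, adjusted p 0.0084).

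Whether an effect differed between the lines was tested as the interaction term of the same fit. The target transcripts themselves fell more in PC3. LARP4 fell 8.03-fold with siLARP4A in PC3 and 3.83-fold in MG63 (PC3 minus MG63 -1.07 in log2 units, edgeR adjusted p 5.1e-07). LARP4B fell 5.59-fold with siLARP4B in PC3 and 3.22-fold in MG63 (-0.80, adjusted p 1.5e-05). The part of this unequal loss of target RNA in the differences below was not tested. For siLARP4A, 3 of the 10 genes passed, against 11.4% of all genes tested, and for siLARP4B also 3, against 27.8%. ID1 passed for both siRNAs, with a difference of log2 effects (PC3 minus MG63) of -0.49 for siLARP4A (SE 0.094, edgeR adjusted p 0.0012) and -0.37 for siLARP4B (SE 0.094, adjusted p 0.0047), the latter missing the threshold without replicate 1 of PC3 siLARP4B (adjusted p 0.053). TGFB2 passed for both, at -0.92 (SE 0.20, adjusted p 0.0035) and -0.79 (SE 0.20, adjusted p 0.0055). Without replicate 1 of MG63 siLARP4B the second of these became -0.47 (adjusted p 0.098), and with limma on log2(FPKM + 0.1) the first missed at an adjusted p of 0.052.

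ID3 passed for siLARP4A, at -0.58 (SE 0.14, edgeR adjusted p 0.010), and became -0.38 without replicate 1 of PC3 siControl (adjusted p 0.17). Its call was also lost without replicate 1 of PC3 siLARP4A (adjusted p 0.059) and without replicate 2 of MG63 siControl (adjusted p 0.051). BMP4 passed for siLARP4B, at 0.83 (SE 0.30, adjusted p 0.043), a call lost in 6 of 17 refits, with DESeq2 (adjusted p 0.10) and in 5 that left out a library (adjusted p 0.092 to 0.18, the highest without replicate 1 of MG63 siLARP4B). TGFBR2 did not pass, at 0.22 for siLARP4A (adjusted p 0.053) and 0.05 for siLARP4B (adjusted p 0.70), but 9 of the 17 refits of the siLARP4A value did, at 0.24 to 0.29. Of the 10 genes, TGFBR2 and SMAD7 were called in both lines for siLARP4A, both higher, and TGFBR2 (higher) and ID2 (lower) for siLARP4B. Only the TGFBR2 calls held in every refit of both lines. In PC3 the SMAD7 call with siLARP4A and the ID2 call with siLARP4B were each lost in 6 of 13 refits. The share of all genes called in both lines was not counted.

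**Figure D3:**
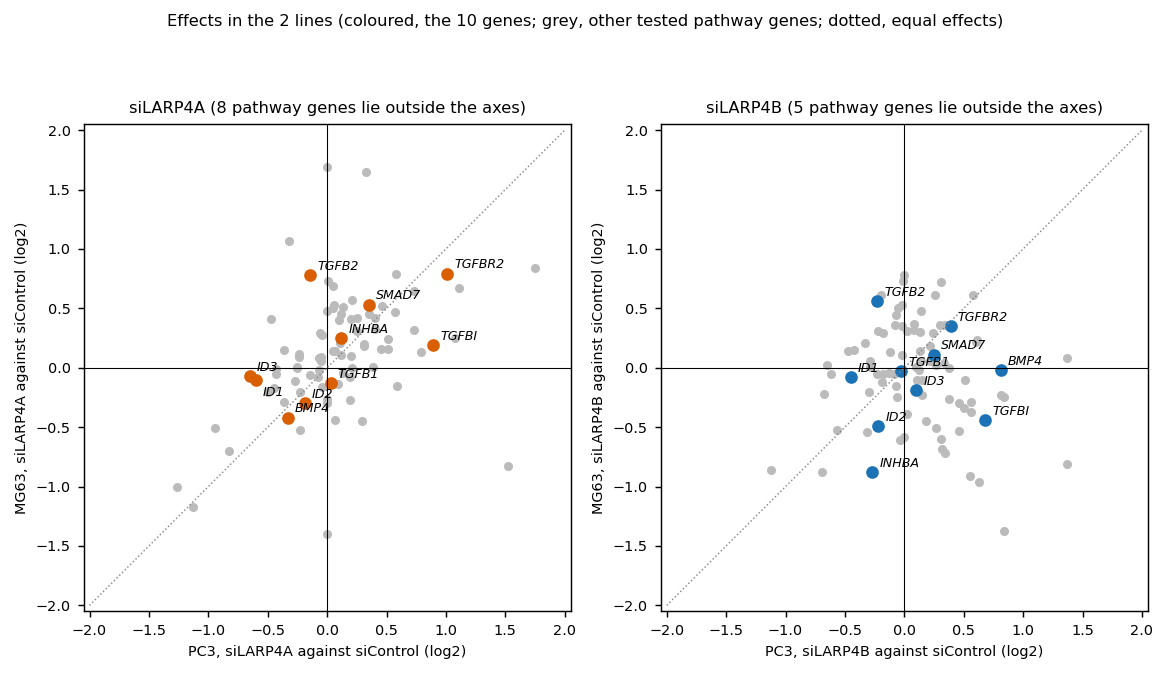
Log2 fold change against siControl in MG63 (y axis) and in PC3 (x axis) for siLARP4A (left) and siLARP4B (right), with the 10 genes coloured, other pathway genes grey and a dotted line of equal effects. TGFBR2 lies near the dotted line in both panels, TGFB2 lies above it on the left of 0, and ID1 lies left of 0 close to the horizontal axis.

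Beyond the 10 genes, 9 lists by role held 101 pathway genes, of which 100 were found at a single locus and 93 were tested, 83 of them outside the 10. Of these 83, siLARP4A changed 36 in PC3 (24 higher, 12 lower, median log2 fold change 0.07) and 42 in MG63 (32 higher, 10 lower, median 0.14), that is 43.4% and 50.6%, against 36% and 26.4% of all genes tested. With siLARP4B, 34 changed in PC3 (20 higher, 14 lower, median 0.12) and 37 in MG63 (17 higher, 20 lower, median -0.02), that is 41% and 44.6%, against 44.7% and 35.1% of all genes, so that the PC3 share was below that of all genes. Medians over all genes tested were between 0.00 and 0.01 in size. Over all 93, siLARP4A called 24 genes in both lines, of which 18 were higher in both. The lower ones were 4 (SMAD5, SMAD6, PPM1A and TWSG1), and 2 went in opposite directions (THBS1 and PMEPA1). With siLARP4B 21 were called, of which 7 were higher and 6 lower in both lines and 8 differed in direction. MSTN, among the 7, had means of only 0.158 FPKM in PC3 and 0.22 in MG63 with siLARP4B. The share of all genes called in both lines was not counted, so these counts have no background to be read against.

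Among ligands, BMP3, a BMP family member, was at 2.59 and 2.50 FPKM with PC3 siControl, 1.24 and 1.09 with siLARP4A and 4.19 and 3.77 with siLARP4B. It fell by 1.13 in log2 units with siLARP4A (SE 0.13, edgeR adjusted p 4.9e-07) and rose by 0.61 with siLARP4B (SE 0.11, adjusted p 0.00015), and between the siRNAs its difference was -1.74 (adjusted p 9.2e-11). GDF6, another BMP-type ligand, was at 18.2 and 17.8 FPKM with MG63 siControl, 7.09 and 6.37 with siLARP4A and 12.2 and 11.4 with siLARP4B, where it fell by 1.40 with siLARP4A (SE 0.080, adjusted p 2.4e-10), and was listed at 0 in every PC3 library. GDF15, a stress-responsive divergent member of the family, rose with siLARP4A in MG63 by 2.46 (SE 0.32, adjusted p 3.7e-06) from a low level, 0.414 and 0.393 FPKM with siControl to 2.58 and 1.89, while in PC3 it was at 251 FPKM or more in all libraries.

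Among proteins that store or release latent TGF-β, THBS1, an activator of the latent ligand, stood in MG63 at 6.39 and 5.92 FPKM with siControl, 13.4 and 12.2 with siLARP4A and 3.85 and 2.70 with siLARP4B. It rose by 1.07 with siLARP4A (SE 0.094, edgeR adjusted p 1.7e-08) and fell by 0.88 with siLARP4B (SE 0.11, adjusted p 1.2e-06). In PC3 it fell by 0.69 with siLARP4B (SE 0.11, adjusted p 3.5e-05) and by 0.32 with siLARP4A (adjusted p 0.023), the latter call being lost in 5 of 13 refits, at adjusted p of up to 0.16. LTBP2, of the latent TGF-β binding protein family, fell in MG63 with siLARP4B by 0.68, and LTBP3, which binds latent TGF-β, rose in PC3 with it by 0.56. FURIN, a protease that processes the TGF-β precursor, rose with siLARP4B in MG63 by 0.72 (SE 0.062, adjusted p 6.9e-09), from 16.3 and 17.3 FPKM to 28.5 and 25.8.

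Of the 14 receptors and co-receptors tested, TGFBR2 included, 6 rose with siLARP4A in PC3 and 9 in MG63, and the rest did not pass edgeR's test. All genes tested were called higher at 17% and 14.5% there. The 9 include BMPR1B, which was listed at 0 in both MG63 siControl libraries and at a mean of 0.0359 FPKM with siLARP4A (adjusted p 0.046), with overlapping ranges, and which reached 1 FPKM in PC3 only. Those called in both lines were TGFBR2, ACVR1, ACVR1B, ACVR2B, ENG and RGMB. Of these, ACVR2B was low, with means of 0.629 (siControl) and 0.953 FPKM (siLARP4A) in PC3 and 0.197 and 0.335 in MG63. ENG was low in PC3 only, at means of 1.18 and 1.71 FPKM, against 50.5 and 55.8 in MG63. With siLARP4B, 4 rose and BMPR2 fell in PC3, and 6 rose and TGFBR3 fell in MG63, 35.7% and 50% of the 14 against 44.7% and 35.1% of all genes. ACVR1B, the type I receptor for activin, rose with siLARP4B by 0.58 in PC3 (SE 0.066, edgeR adjusted p 2.2e-07) and in MG63 by 0.61 (SE 0.075, adjusted p 1.5e-06). The BMP type II receptor BMPR2 stood in PC3 at 3.77 and 3.85 FPKM with siControl and at 2.52 and 2.50 with siLARP4B, where it fell by 0.65 (SE 0.093, adjusted p 5.8e-06). In MG63 its siLARP4B value was 0.02 and did not pass (adjusted p 0.87).

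Among the SMADs, 6 carry the signal, SMAD4 included, and all were tested. With siLARP4A, 3 changed in PC3 (SMAD1 higher, SMAD4 and SMAD5 lower) and 2 in MG63 (SMAD3 higher, SMAD5 lower). With siLARP4B, SMAD3, SMAD4 and SMAD5 fell in PC3, the SMAD5 call being lost in 8 of 13 refits, and SMAD4 fell in MG63. These are 50%, 33.3%, 50% and 16.7%, against 36%, 26.4%, 44.7% and 35.1% of all genes. SMAD5, which carries BMP signals, stood in PC3 at 8.70 and 8.87 FPKM with siControl and at 3.95 and 3.43 with siLARP4A, and in MG63 at 18.1 and 18.2 against 8.81 and 9.06. It fell by 1.26 in log2 units in PC3 (SE 0.071, edgeR adjusted p 1e-11) and in MG63 by 1.00 (SE 0.063, adjusted p 1.1e-10). SMAD6, the inhibitory SMAD of the BMP branch, fell with siLARP4A by 0.83 in PC3 (SE 0.12, adjusted p 1.4e-05) and in MG63 by 0.70 (SE 0.088, adjusted p 3e-06), whereas its relative SMAD7 rose in both. The SMAD7 call in PC3 was lost in 6 of 13 refits. PPM1A, a phosphatase that acts on SMADs, fell with siLARP4A by 0.94 in PC3 (SE 0.088, adjusted p 3e-08). Of the 12 intracellular inhibitors, siLARP4A changed 9 in PC3 (5 higher, 4 lower) and 7 in MG63 (5 higher, 2 lower), and siLARP4B 2 in PC3 (SMURF1 higher, PMEPA1 lower) and 5 in MG63 (3 higher, 2 lower). These are 75% and 58.3% with siLARP4A, against 36% and 26.4% of all genes, and 16.7% and 41.7% with siLARP4B, against 44.7% and 35.1%.

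PMEPA1, an inhibitor that is also induced by TGF-β, stood in PC3 at 2.42 and 2.54 FPKM with siControl and 1.00 and 1.36 with siLARP4B, and in MG63 at 5.53 and 5.30 against 3.03 and 2.81. It fell with siLARP4B by 1.12 in PC3 (SE 0.13, edgeR adjusted p 3.4e-07) and in MG63 by 0.86 (SE 0.099, adjusted p 6.1e-07). Among the 10 extracellular antagonists tested, siLARP4B changed 3 in PC3 (FSTL3 higher, NOG and FST lower) and 5 in MG63 (TWSG1 and BMPER higher, FST, FSTL3 and CHRDL1 lower), 30% and 50% of the list against 44.7% and 35.1% of all genes. FST, which encodes the activin-binding follistatin, fell with siLARP4B in PC3 by 0.68 (SE 0.044, adjusted p 3.8e-11), from 204 and 217 FPKM to 138 and 134. BMPER, a BMP-binding protein, fell with siLARP4A in MG63 by 0.52 and rose there with siLARP4B by 0.73 (adjusted p of the direct comparison 1.9e-10), and in PC3 it was at 0.0282 FPKM or less.

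All 15 TGF-β target genes, TGFBI among them, were tested, and no test of the list between the siRNAs was run. With siLARP4A, 9 rose and CCN2 fell in PC3 (median log2 fold change 0.51) and 8 rose and IGFBP3 fell in MG63 (median 0.32). With siLARP4B, 6 rose and CCN2, SNAI2 and FN1 fell in PC3 (median 0.27) and SNAI1 and SNAI2 rose and 8 fell in MG63 (median -0.15). The shares called, 66.7% and 60% with siLARP4A and 60% and 66.7% with siLARP4B, compare with 36%, 26.4%, 44.7% and 35.1% of all genes. The SNAI2 fall in PC3 (-0.20, edgeR adjusted p 0.041) was lost in 9 of 13 refits, at adjusted p of up to 0.28.

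KLF10, a transcription factor known as a TGF-β inducible early gene, stood in MG63 at 11.8 and 11.6 FPKM with siControl, 17.5 and 16.7 with siLARP4A and 7.11 and 7.98 with siLARP4B, with no overlap between the groups. It fell there with siLARP4B by 0.61 in log2 units (SE 0.071, edgeR adjusted p 6.9e-07) and rose with siLARP4A by 0.57 (SE 0.064, adjusted p 7.1e-07). In PC3 it rose with siLARP4A by 0.21 (adjusted p 0.0028), while the siLARP4B value was -0.04 (adjusted p 0.59). JUNB, a subunit of the AP-1 transcription factor, stood in MG63 at 76.9 and 73.0 FPKM with siControl, 123 and 122 with siLARP4A and 58.8 and 53.8 with siLARP4B. It rose with siLARP4A by 0.73 (SE 0.071, adjusted p 7.9e-08) and fell with siLARP4B by 0.39 (SE 0.073, adjusted p 0.00027). The JUNB values in PC3 were 0.01 and 0.02, and neither passed (adjusted p 0.93 and 0.86). In MG63 both genes were thus above siControl with siLARP4A and below it with siLARP4B, whereas TGFBR2 was above it under both siRNAs.

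FN1, which encodes the matrix protein fibronectin, stood in PC3 at 8.16 and 9.06 FPKM with siControl, 15.8 and 13.0 with siLARP4A and 7.28 and 7.24 with siLARP4B. It rose there with siLARP4A by 0.73 (SE 0.071, edgeR adjusted p 4.4e-08) and in MG63 by 0.32 (SE 0.061, adjusted p 0.00037). With siLARP4B it fell in PC3 by 0.29 (SE 0.075, adjusted p 0.0033), a call lost without replicate 2 of PC3 siControl (-0.19, adjusted p 0.12) and with both limma settings (adjusted p 0.060 and 0.051), and was at 0.06 in MG63 (adjusted p 0.50).

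Other targets that rose with siLARP4A were COL1A1, a fibrillar collagen chain, by 1.75 in PC3 (SE 0.076, edgeR adjusted p 1.5e-13) and 0.84 in MG63 (SE 0.051, adjusted p 6.1e-11), and the cell cycle inhibitor CDKN1A by 1.11 in PC3 (SE 0.094, adjusted p 5.5e-09). SPHK1, a sphingosine kinase, rose in PC3 by 0.79 (SE 0.086, adjusted p 2.3e-07). With siLARP4B, TAGLN, an actin-binding protein, rose in PC3 by 0.60 (SE 0.11, adjusted p 0.0001) and SNAI2, a transcription factor of epithelial-mesenchymal transition, rose in MG63 by 0.61 (SE 0.089, adjusted p 1.3e-05).

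The summed level of the 5 epithelial markers in PC3 was 852 to 868 FPKM with siControl, 993 to 1042 with siLARP4A and 796 to 822 with siLARP4B, and in MG63 71.5 to 72.2, 64.6 to 67.4 and 54.6 to 56.2. The 7 mesenchymal markers, COL1A1 among them, summed to 475 to 497, 481 to 515 and 404 FPKM in PC3, and to 5398 to 5894 over all MG63 libraries. The part of these markers in the results was not tested.

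**Figure D4:**
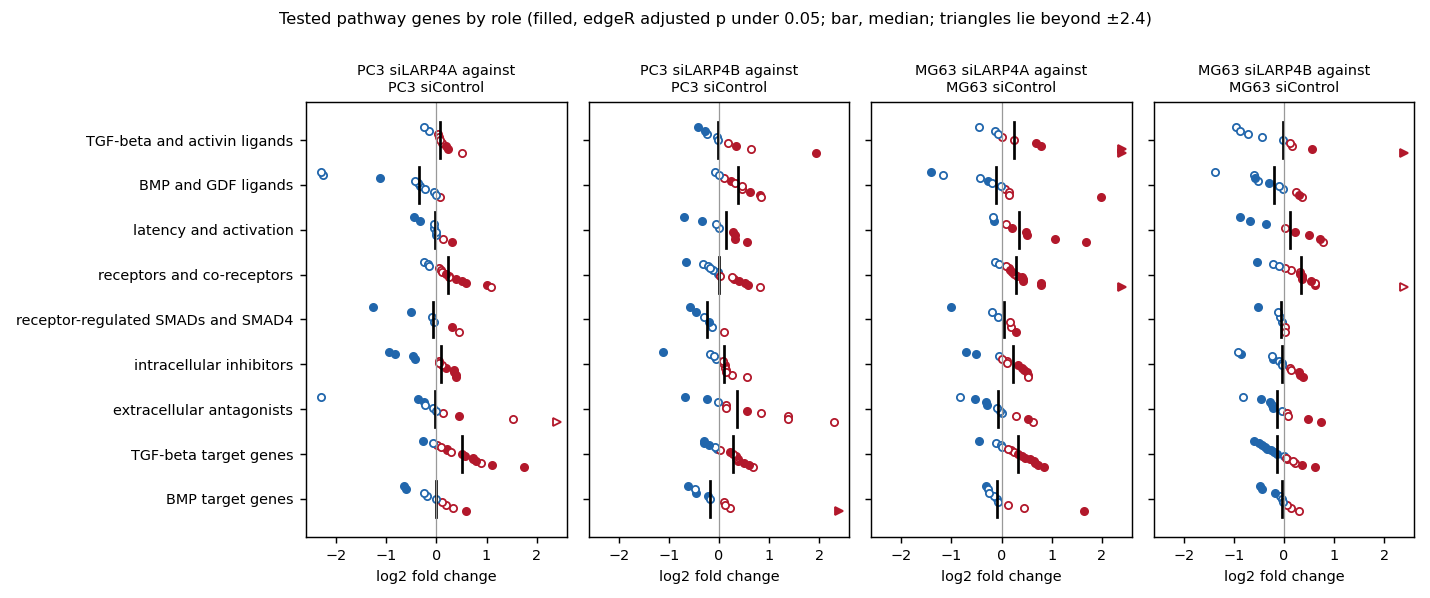
Log2 fold change (x axes) of each tested pathway gene, in rows by role, for the 4 comparisons with siControl, with filled points for an edgeR adjusted p under 0.05, red for higher, blue for lower, a bar at each list's median and triangles for values beyond the axis. The medians of TGF-β targets lie at 0.51 and 0.32 with siLARP4A and at 0.27 and -0.15 with siLARP4B.

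**Figure D5:**
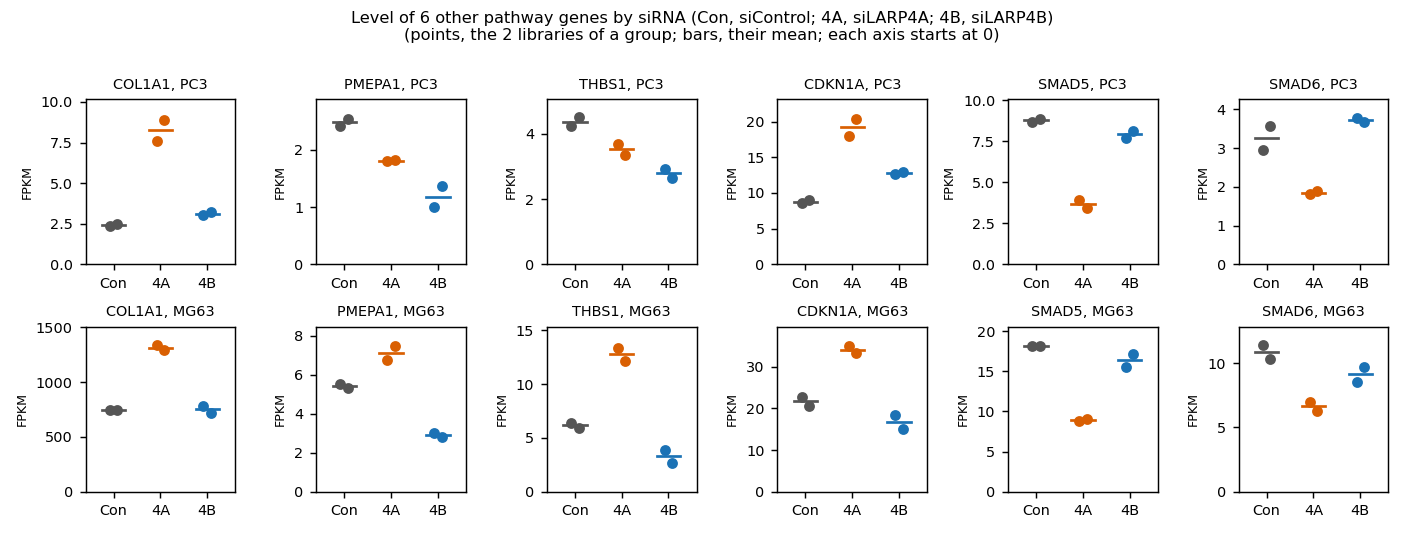
Level in FPKM (y axes, each from 0) of 6 pathway genes outside the 10 by siRNA group in PC3 and MG63, with each library as a point and the mean of 2 as a bar. COL1A1 is highest with siLARP4A in both lines, while SMAD5 and SMAD6 are lowest with siLARP4A in both.

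Of the 9 BMP target genes tested, ID1, ID2 and ID3 included, siLARP4A changed 3 in PC3 (MSX1 higher, ID1 and ID3 lower) and 2 in MG63 (RUNX2 higher, ID2 lower). With siLARP4B, 4 changed in PC3 (ATOH8 higher, ID1, ID2 and HEY1 lower) and 3 in MG63 (ID2, ID3 and ATOH8 lower). These shares, 33.3%, 22.2%, 44.4% and 33.3%, were all slightly below those of all genes, 36%, 26.4%, 44.7% and 35.1%. ATOH8 was listed at 0 in both PC3 siControl libraries and at a mean of 0.0249 FPKM with siLARP4B (edgeR adjusted p 0.047), so this call rests on very few fragments. RUNX2 was also low, at 0.14 to 0.654 FPKM over the MG63 libraries. Over the 4 comparisons ID1, ID2 and ID3 made up 7 of the 9 falls in this list. Comparisons of the same line share their control libraries, so these falls are not independent of each other. Of the 13 refits, 6 lost the ID2 call in PC3 siLARP4B, 8 the ID3 call in MG63 siLARP4B and 3 the ID2 call in MG63 siLARP4A.

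The genes whose levels followed ID1 and SMAD7 most closely were found by Pearson's r of log2 CPM (counts scaled to library size), centred within each line, over the 12 libraries and 6746 genes with a mean of at least 5 FPKM in both lines. For ID1 they were TMA16 (r 0.945), PSME3IP1 (0.941) and ENY2 (0.934), and for SMAD7 GPR107 (0.973), S100A11 (0.955) and ZFP36L1 (0.950). The points share libraries and siRNA groups, so these values are a description and carry no p. Bulk libraries do not tell fewer expressing cells from less RNA per cell, which applies to all changes above.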

How the data were processed

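The authors deposited 1 table per library of 12, with a fragment count, an FPM value and an FPKM value for each of 86394 transcript models, per the file headers. The deposited counts are whole numbers, and the deposited FPKM values equal the count scaled to the library total and to the model's length in kilobases. Per the submitters' processing notes, FastQC, HISAT2, featureCounts and edgeR were used on hg38, with versions and the strand setting not given in the sources used here. Reads in an exon shared by several models can count in each, and reads of overlapping or antisense genes cannot be separated.

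Models on chromosomes 1 to 22 and X were kept, 1748 symbols at several loci were left out, and each of the 26415 symbols used was represented by its model of highest summed count. Testing of the counts was done in edgeR 4.0.16 under R 4.3.3 (quasi-likelihood F-test, two-sided, TMM scaling, default expression filter, 1 fit with a mean per group, 15669 genes, 9 comparisons, Benjamini-Hochberg adjustment over all genes tested in a comparison, threshold 0.05). The biological coefficient of variation was 4.21%, and with 2 libraries a group each gene's spread leans on that of the others (prior degrees of freedom 15.5). SE is the size of the log2 fold change divided by the square root of F. The scripts were tested on simulated data. Levels are the deposited FPKM values, and p-values measure only the spread between these libraries.

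Alternatives were DESeq2 1.42.0 size factors and its Wald test, limma 3.58.1 on log2(FPKM + 1) and log2(FPKM + 0.1), no filter, only the libraries compared, a replicate block, each library left out, the longest model, and the deduplicated table of PC3 siControl replicate 2. Deviations of libraries that share a replicate number correlated at -0.03 to 0.05 across 15669 genes, so the numbers were not taken as pairs. The members, the pathway lists and the tests were chosen with earlier results of these data known. Besides the 10 genes and the 2 targets, the pathway genes named by rule are, in each comparison with siControl, the 4 highest and 4 lowest fold changes past the threshold with a mean of at least 1 FPKM in either group, others being said to be named after their values were seen or given as members of a count. GREM1 and PTPRC were left out as symbols at several loci. One gene each of the TGF-β target list and the prostate marker list is not reported here and was taken out of its list after values were seen. Promoter sequences are from RefSeq.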

Additional observations from a re-analysis of the deposited data

Results flagged for a closer look

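Each value here is a difference of log2 effects, PC3 minus MG63, that passed edgeR's interaction test at an adjusted p under 0.05, which is what brought it here. The targets LARP4 and LARP4B themselves fell more in PC3 than in MG63 under their own siRNAs. The part of that difference in these values was not tested. Of the 10 genes under siLARP4A, TGFB2 (-0.92) rose in MG63 and did not pass in PC3. ID1 (-0.49) and ID3 (-0.58) fell in PC3 and did not pass in MG63. The largest gap among the other named pathway genes was that of GDF15 (-2.24), which rose 5.52-fold in MG63 from about 0.4 FPKM and 1.17-fold in PC3 from 253 FPKM. THBS1 (-1.39) and PMEPA1 (-0.88) rose in MG63 and fell in PC3, where the THBS1 call was lost in 5 of 13 refits. KLF10 (-0.36) rose in both lines and more in MG63, and JUNB (-0.72) rose in MG63 and did not pass in PC3. COL1A1 (0.91), CDKN1A (0.44) and FN1 (0.41) rose in both lines and, as a ratio, more in PC3, and SPHK1 (0.66) rose in PC3 and did not pass in MG63. Mean COL1A1 went from 2.43 to 8.25 FPKM in PC3 and from 745 to 1316 in MG63. For CDKN1A the means went from 8.79 to 19.2 FPKM in PC3 and from 21.7 to 34.1 in MG63. Those of FN1 went from 8.61 to 14.4 FPKM in PC3 and from 307 to 379 in MG63. PPM1A (-0.43) fell in both lines and more in PC3, and FST (-0.25) fell in PC3 and did not pass in MG63.

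Under siLARP4B, TGFB2 (-0.79) rose in MG63 and did not pass in PC3. ID1 (-0.37) fell and BMP4 (0.83) rose in PC3, and neither passed in MG63. LTBP2 (0.99), LTBP3 (0.94) and CDKN1A (0.84) rose in PC3 and fell in MG63, and SNAI2 (-0.81) rose in MG63, while its PC3 value of -0.20 passed but was lost in 9 of 13 refits. KLF10 (0.57), JUNB (0.41) and SMAD6 (0.38) fell in MG63 and did not pass in PC3, the SMAD6 fall being lost in 5 of 13 refits. COL1A1 (0.28) rose in PC3, while BMPR2 (-0.67) and FN1 (-0.35) fell there, and these genes did not pass in MG63. FST (-0.45) fell in both lines and more in PC3, and FURIN (-0.41) rose in both and more in MG63.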

How the results depend on the processing

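Of the 18 calls of the 10 genes against siControl, 11 held in every alternative, and of 234 refits of these calls 197 kept the call, 37 lost it and 0 changed direction. For the other named pathway genes 52 of 64 calls held in every alternative, with 54 of 832 refits losing the call and 0 changing direction. The count of the 10 genes called in PC3 siLARP4B against siControl went from 5 to 3 with DESeq2's Wald test and with the longest model, and ranged from 3 to 4 with 1 library left out, being 3 without replicate 1 of PC3 siControl and without replicate 1 of PC3 siLARP4B. In MG63 siLARP4B it went from 5 to 3 with DESeq2's Wald test and with limma on log2(FPKM + 1) and on log2(FPKM + 0.1), and ranged from 3 to 4 with 1 library left out, being 3 without replicate 1 of MG63 siLARP4B. The count of siLARP4B effects that differ between lines was 3 with all libraries and ranged from 1 to 4 with 1 left out, being 1 without replicate 1 of MG63 siLARP4B. The cause of these changes was not tested. With the replicate block, the counts were 4, 5, 4 and 4 in place of 4, 5, 4 and 5 for the comparisons with siControl (PC3 siLARP4A, PC3 siLARP4B, MG63 siLARP4A and MG63 siLARP4B), the lost call being ID3 in MG63 siLARP4B (adjusted p 0.059). Depth limits INHBA in MG63 (6 to 16 fragments), TGFBI in PC3 (3 to 11) and BMP4 in MG63 (20 to 35).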
